A study of Mus musculus with 2 samples.

Results

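Cd34, Kit, Myb, Erg, Sox4, Flt3, Hoxa9, Meis1, Spink2 and Cd27 are genes whose RNA marks blood stem and progenitor cells. These 10 genes were chosen by symbol from the 32285 genes listed in each of 2 single-cell count matrices. One matrix holds vehicle-treated and the other retinoic acid-treated mouse promyelocytes that express the PLZF/RARA fusion. After 7 days of retinoic acid the library held almost no Cd34 RNA and little Sox4 or Flt3 RNA, while the levels of Kit, Myb, Erg and Cd27 stayed within 2-fold of the vehicle. Hoxa9 and Meis1 had no counts in either library.

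In blood formation, stem cells pass through progenitors to promyelocytes, the granule-building precursors of neutrophils, and most stem and progenitor genes are turned down on the way. CD34 is a surface sialomucin, KIT and FLT3 are receptor tyrosine kinases for stem cell factor and FLT3 ligand, and CD27 is a member of the tumour necrosis factor receptor family. MYB, ERG, SOX4, HOXA9 and MEIS1 are transcription factors of immature blood cells, and HOXA9 and MEIS1 act together in several leukemias. SPINK2 is a Kazal-type protease inhibitor whose RNA is found in early progenitors.

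The cells came from leukemic bone marrow and carried PLZF/RARA, a fusion of the zinc finger protein PLZF with retinoic acid receptor alpha that makes acute promyelocytic leukemia respond poorly to retinoic acid. Mice in the vehicle group received corn oil with 10% DMSO by intraperitoneal injection, and mice in the treated group 0.8 to 1 mg of retinoic acid by the same route. A cohort was 3 to 5 mice, and the labels do not say how many mice gave cells to a library. In both groups the cells were sorted as late promyelocytes by 5 antigens, positive for CD45.2, c-Kit, Gr1 and the Fcγ receptor and negative for CD34, and loaded for droplet capture of polyadenylated RNA at a target of 6000 cells. The genes of 2 antigens of the sort, Kit and Cd34, are therefore among the 10 genes, and the sort can set how many cells with their RNA were captured.

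After filtering, the vehicle library held 5476 cells and 99107718 UMIs (unique molecular identifiers, each marking 1 captured RNA molecule), and the retinoic acid library 7140 cells and 110088247 UMIs. The median depths were 16749.5 and 14604 UMIs per cell, and 11 cell barcodes were found in both libraries. Each group was 1 library, and cells of a library are not replicates, so no test was made and every difference below also holds differences between mice, sorts and preparations. Levels are CPM, counts per 1000000 UMIs of the library or of the cells named, and brackets give exact 95% intervals that cover counting error only. All 7 promyelocyte markers reached 20 CPM, and their sum was 8339 CPM in the vehicle and 18904 CPM after retinoic acid. Of these, 3 were at least 2-fold higher after retinoic acid, the granule protease genes Elane (62.8 and 7663 CPM) and Prtn3 (246 and 2819) and Ms4a3 (850 and 2087), and Mpo, myeloperoxidase, was lower at 311 and 0.4996 CPM. Ctsg (6444 and 5979 CPM), Prss57 (377 and 315) and Cebpa (47.2 and 40.2) were within 2-fold. So were the sort antigen genes Ptprc (99.6 and 102), Fcgr3 (53.5 and 64.8), Fcgr2b (123 and 88.9), Ly6c1 (1384 and 1296) and Ly6c2 (4765 and 4326). The sort antigen gene Ly6g, a Gr1 antigen that is also on the maturation list used below, was higher after retinoic acid. It was at 35.6 and 281 CPM, a log2 ratio of 2.98. The 9 T and NK cell markers summed to 1284 and 575 CPM, of which Nkg7 gave 1283 and 575 CPM while Cd3e was seen in no cell of at least 5000 UMIs after thinning to that depth, the 12 erythroid and megakaryocyte markers to 16.3 and 2.84 CPM, and the 12 monocyte and dendritic markers to 7.45 and 4.74 CPM. The 11 basophil and mast markers summed to 507 and 83.2 CPM, with Cyp11a1 at 268 and 15.1, Mcpt8 at 122 and 63.1 and Hdc at 66.97 and 1.71 CPM, and the 8 eosinophil markers to 126 and 34.7 CPM, and these 2 sums moved in the same direction as Cd34, Sox4 and Flt3; their part in the results was not tested except where cells were gated on them below.

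The DNA just before the start of the genes is shown for the 3 with the lower level after retinoic acid, Cd34, Flt3 and Sox4, and for Erg, whose level was nearly kept. All 10 genes matched the RefSeq promoter table (build GRCm38.p6), which gives 250 bases before and 50 after each start, and 6 short motifs were searched on both strands of those 300 bases. The motif of the GATA factors was spelled AGATAA, and 11.2% of all 32851 promoters of this length in the table hold it. The ETS motif was CCGGAAG, held by 8.86% of promoters. The RUNX motif TGTGGT was in 16.8%, and the MYB motif AACGG in 17.4%. For C/EBP the letters were TTNCNNAA, present in 40.7%, and for nuclear receptors AGGTCA, present in 16.3%. The 250 bases before each start follow, 5′ to 3′ on the gene's strand, with motif matches in capitals.
Cd34, chr1:194938571-194938820, plus strand: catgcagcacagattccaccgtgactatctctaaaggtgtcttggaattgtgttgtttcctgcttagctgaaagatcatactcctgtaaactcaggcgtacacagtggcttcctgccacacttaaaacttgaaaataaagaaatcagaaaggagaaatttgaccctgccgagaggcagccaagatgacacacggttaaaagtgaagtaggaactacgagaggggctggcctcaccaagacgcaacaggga
Flt3, chr5:147400490-147400739, minus strand: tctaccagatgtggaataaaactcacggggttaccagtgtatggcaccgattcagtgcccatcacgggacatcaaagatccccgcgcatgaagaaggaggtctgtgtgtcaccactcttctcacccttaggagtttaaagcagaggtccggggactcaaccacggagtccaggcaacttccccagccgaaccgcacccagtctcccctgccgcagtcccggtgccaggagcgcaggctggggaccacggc
Sox4, chr13:28953700-28953949, minus strand: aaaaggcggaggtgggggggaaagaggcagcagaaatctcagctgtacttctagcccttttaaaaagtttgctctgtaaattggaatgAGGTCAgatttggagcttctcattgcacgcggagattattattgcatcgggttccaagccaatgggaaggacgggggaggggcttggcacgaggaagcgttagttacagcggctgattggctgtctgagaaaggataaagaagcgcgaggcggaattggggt
Erg, chr16:95586594-95586843, minus strand: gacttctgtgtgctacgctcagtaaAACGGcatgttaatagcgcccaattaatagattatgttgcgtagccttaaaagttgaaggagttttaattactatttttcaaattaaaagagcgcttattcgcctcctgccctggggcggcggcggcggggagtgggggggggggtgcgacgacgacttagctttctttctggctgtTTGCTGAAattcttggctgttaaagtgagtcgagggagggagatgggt
The Sox4 sequence holds 1 nuclear receptor match, with its first base at -162 from the start. The Erg sequence holds 1 MYB match at -225 and 1 C/EBP match at -48. The windows of Cd34, Kit, Myb, Flt3, Hoxa9 and Cd27 hold none of the 6 motifs, which says only that these letters are not there. For Spink2 there were 1 MYB and 1 C/EBP match, and for Meis1 1 ETS, 1 RUNX and 2 C/EBP matches. The GATA motif was in none of the 10 windows.

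The first comparison asked how the level of each gene differed between the retinoic acid and the vehicle library. Cd34 (ENSMUSG00000016494, chromosome 1, 194938819 to 194961279, plus strand, GRCm38 as for all genes here) had 5336 counts in the vehicle library and 13 in the retinoic acid library, or 53.8 CPM (52.4 to 55.3) against 0.118 CPM (0.0629 to 0.202). The level was 439-fold lower, a log2 ratio of -8.78 (-9.74 to -8.06). The vehicle cells had been sorted as negative for the CD34 protein, yet 50.6% of them held a Cd34 UMI. After retinoic acid, 11 of 7140 cells held the 13 counts.

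Flt3 (ENSMUSG00000042817, chromosome 5, 147330741 to 147400489, minus strand) had 285 and 78 counts, 2.88 CPM (2.55 to 3.23) in the vehicle and 0.709 CPM (0.560 to 0.884) after retinoic acid, a log2 ratio of -2.01 (-2.40 to -1.65). Kit (ENSMUSG00000005672, chromosome 5, 75574916 to 75656722, plus strand) had 1910 and 1835 counts, 19.3 CPM (18.4 to 20.2) and 16.7 CPM (15.9 to 17.4), a log2 ratio of -0.21 (-0.30 to -0.12). Cd27 (ENSMUSG00000030336, chromosome 6, 125232622 to 125237010, minus strand) had 152 and 159 counts, 1.53 CPM (1.30 to 1.80) and 1.44 CPM (1.23 to 1.69), and its log2 ratio of -0.09 (-0.42 to 0.24) had an interval that included 0. Among the 4 genes of surface proteins, Cd34 and Flt3 were more than 2-fold lower after retinoic acid, Kit was within 2-fold, and Cd27 was scarce in both libraries. Cd27 lies over Vamp1 on the opposite strand, and the sources used here do not say whether strand was used in counting.

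Of the transcription factors, Myb (ENSMUSG00000019982, chromosome 10, 21124935 to 21160984, minus strand) was the most abundant, with 20573 and 17079 counts. It was at 208 CPM (205 to 210) without and 155 CPM (153 to 157) with retinoic acid, a log2 ratio of -0.42 (-0.45 to -0.39). Erg (ENSMUSG00000040732, chromosome 16, 95359169 to 95586593, minus strand) had 2045 and 1978 counts, 20.6 CPM (19.7 to 21.5) and 17.97 CPM (17.2 to 18.8), a log2 ratio of -0.20 (-0.29 to -0.11). Sox4 (ENSMUSG00000076431, chromosome 13, 28948919 to 28953713, minus strand) had 172 and 8 counts, 1.74 CPM (1.49 to 2.02) and 0.0727 CPM (0.0314 to 0.143), a log2 ratio of -4.49 (-5.81 to -3.57). Sox4 was thus 22.5-fold lower on a base of few counts, while Myb and Erg stayed within 2-fold.

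Spink2 (ENSMUSG00000053030, chromosome 5) was under 1 CPM in both libraries, with 52 counts in the vehicle and 1 after retinoic acid and a log2 ratio of -5.28 (-11.18 to -3.31). Hoxa9 (ENSMUSG00000038227, chromosome 6) and Meis1 (ENSMUSG00000020160, chromosome 11) had 0 counts in both, which allows up to 3 counts, or 0.0303 and 0.0273 CPM. The other Hoxa genes were as scarce: 9 of 10 had 0 counts and the list summed to 0.0101 CPM in the vehicle. Of the cofactors that pair with HOXA9 and MEIS1, Pbx2, Pbx3 and Pknox1 were within 2-fold (16.6 and 29.0, 2.63 and 4.10, 15.7 and 16.5 CPM), and Pbx4 was lower at 25.9 and 6.23 CPM, a log2 ratio of -2.06.

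Of the 10 genes, 7 reached 1 CPM in either library, and 3 of these (Cd34, Flt3 and Sox4) were at least 2-fold lower after retinoic acid, 0 were at least 2-fold higher and 4 were within 2-fold. Over all 11294 genes of at least 1 CPM, 9.95% were at least 2-fold lower and 4.24% higher. Cd34, Flt3 and Sox4 reached the limit only through the vehicle library, so they had to differ, and the count describes these genes without support for a pattern. The median log2 ratio of the 7 genes was -0.42, and that of all genes of at least 1 CPM was -0.04. At 20 CPM or more, 1 of 3 genes was lower (Cd34), and 5.05% of 5548 genes were, with 3.03% higher.

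**Figure D1:**
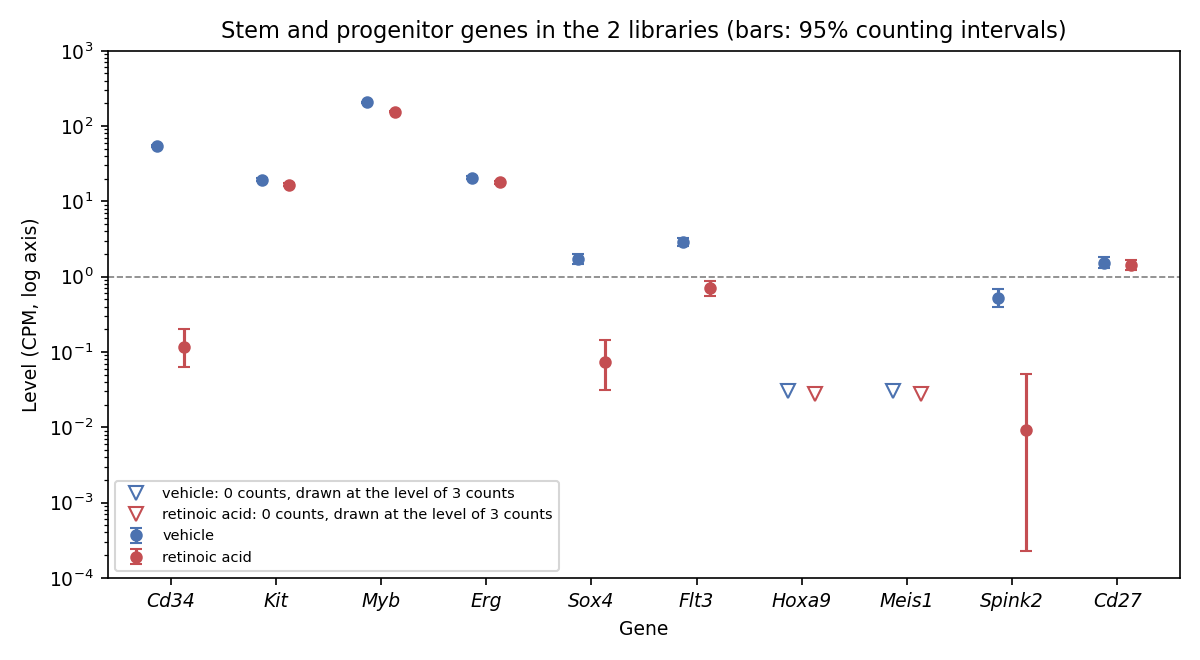
Level of the 10 genes in the vehicle and the retinoic acid library in CPM on a log axis, with 95% counting intervals; open triangles stand for 0 counts and are drawn at the level of 3 counts, and the dashed line is 1 CPM. The point of Cd34 drops from 53.8 to 0.118 CPM, while those of Kit, Myb, Erg and Cd27 lie close together.

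The next question was how many cells carried each RNA. So that depth was equal, 5000 UMIs were drawn at random from every cell that had them, 5282 cells of the vehicle and 6659 of the treated library; 194 and 481 cells were too shallow. Cd34 was then seen in 1210 vehicle cells, 22.9% (21.8 to 24.1), and in 4 treated cells, 0.0601% (0.0164 to 0.154), so the shares differed by -22.8 percentage points (-24.0 to -21.7). Myb was seen in 60.0% (58.7 to 61.3) and 49.7% (48.5 to 50.9), in the same order. Erg was seen in 10.2% and 8.47%, a difference of -1.70 points (-2.76 to -0.65). Kit was seen in 8.54% and 8.26%, and the interval of the difference of -0.279 points (-1.29 to 0.718) included 0. Without thinning the shares were 50.6% and 0.154% for Cd34, 27.1% and 21.2% for Kit, 88.8% and 77.1% for Myb and 28.0% and 22.6% for Erg.

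These shares were near what the same UMIs would give if spread evenly over the cells. For vehicle Cd34 an even spread would give 24.3% and 22.9% was seen, with a variance over mean of 1.13 and at most 4 UMIs in a thinned cell. For Kit the even share was 8.84% against 8.54% seen in the vehicle and 8.47% against 8.26% after retinoic acid. At counts as low as those of Kit and Erg, many uneven spreads also give a share near the even one. The nearness therefore does not show that these 2 genes had an even level across cells. For Myb the even share was 63.6% against 60.0% seen and 53.2% against 49.7%, with ratios of variance to mean of 1.20 and 1.25. For a like relative spread, both measures rise with the mean count. That mean was 1.01 UMIs per thinned vehicle cell for Myb and 0.0926 for Kit, so the genes are not ranked by evenness. No small set of cells held most of the Cd34, Kit, Myb or Erg RNA.

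The rarer genes lay at the level of RNA from other lineages. At 5000 UMIs, Flt3 was seen in 1.34% of vehicle and 0.300% of retinoic acid cells, Sox4 in 0.833% and 0.0451%, Spink2 in 0.322% and 0%, and Cd27 in 0.549% and 0.796%. The B cell gene Cd79a was seen in 0.909% and 1.01% of the same cells, and the red cell genes Hba-a1 and Klf1 in 1.33% and 0.0751% and in 0.606% and 0.270%, at median depths of 17016.5 and 15152 UMIs before thinning. The Sox4, Spink2 and Cd27 shares were at or below the higher of these, and the Flt3 share of the vehicle library was level with that of Hba-a1, so no number of expressing cells is read from them. Spink2 was not spread alike over cell types: in the vehicle it was at 2.32 CPM (0.752 to 5.40) in cells gated on the eosinophil list and 0.488 CPM in the others, on 5 and 47 counts. Hba-a1 itself differed between the libraries (2.61 and 0.0999 CPM), as Sox4 and Flt3 did, and whether free RNA took part in their difference was not tested.

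The cells that held the 13 Cd34 counts after retinoic acid had from 3874 to 54982 UMIs, with a median of 24005, and a deeper cell is more likely to show a rare RNA. By maturation, 9 of the 11 cells had under 2% of their UMIs in a list of 24 neutrophil maturation genes, among them 6 under 0.5%, while 1 was too shallow to place. None of the 11 held a UMI of Mpo or of Cpa3 (the mast cell carboxypeptidase), and none had a barcode also found in the vehicle library. Of the 7 cells with Sox4, 5 were under 2%.

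The maturation list, which holds granule genes such as Camp, Ngp and Ltf, was used to set cells of the 2 libraries side by side at a like stage. Under 0.5% of UMIs in the list were found in 91.6% of vehicle cells (4840) but in 4.81% of retinoic acid cells (320), and 8% or more in 0.587% and 30.9%. In the vehicle library, Cd34 was at 56.2 CPM (54.7 to 57.7) under 0.5%, 26.3 CPM (22.2 to 31.0) at 0.5 to 2% and 13.2 CPM (6.57 to 23.6) at 2 to 8%. The ratio of the second to the first was -1.09 on the log2 scale (-1.34 to -0.85), a step of at least 2-fold down that 1.24% of genes showed (4.22% stepped up). From the first to the third bin it was -2.03 (-3.10 to -1.25), beside 6.07% of genes lower and 15.8% higher. Cd34 thus already differed among untreated cells by how matured they were. In the retinoic acid library Cd34 was at 1.18 CPM (0.476 to 2.44), 0.123 CPM, 0.0225 CPM and 0 CPM in the 4 bins, the last over 2055 cells.

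Between cells of the 2 libraries that were both under 0.5%, Cd34 was still lower after retinoic acid, with a log2 ratio of -5.47 (-6.89 to -4.53). Sox4 was at 1.77 and 0.169 CPM (-2.81, -8.70 to -0.89) and Flt3 at 2.95 and 1.01 CPM (-1.43, -2.999 to -0.399), on 1 and 6 counts in the treated cells. In this comparison 7.69% of genes were at least 2-fold lower and 3.3% higher. Erg was lower too, at 20.9 CPM (19.99 to 21.9) and 13.5 CPM (10.7 to 16.8), a log2 ratio of -0.62 (-0.97 to -0.31). Kit was level at 19.5 and 19.8 CPM, with a log2 ratio of 0.03 (-0.26 to 0.29), and Myb at 208 and 211 CPM, with 0.02 (-0.06 to 0.10). The bin boundaries were the same in both libraries, but cells of a bin can still differ in stage.

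Within the retinoic acid library, Myb and Erg went opposite ways along the maturation list. Myb was at 211 CPM (199 to 223) under 0.5%, 171 CPM (166 to 175) at 0.5 to 2%, 162 CPM (158 to 166) at 2 to 8% and 109 CPM (105 to 113) at 8% or more. The last bin over the first gave a log2 ratio of -0.96 (-1.05 to -0.86), beside a median of -0.32 over all genes, of which 12.7% were at least 2-fold lower and 5.66% higher. Erg was at 13.5 CPM (10.7 to 16.8), 15.5 CPM (14.2 to 16.9), 17.3 CPM (16.1 to 18.6) and 23.0 CPM (21.2 to 24.9), a log2 ratio of 0.76 (0.43 to 1.12). Kit stayed between 15.4 and 19.8 CPM in the 4 bins, with a log2 ratio of the last over the first of -0.33 (-0.62 to -0.01). The maturation genes take up part of the total in the last bin, and with them left out of the total the ratios became -0.67 for Myb, 1.05 for Erg and -0.04 for Kit. Median depth also fell, from 17889.5 to 11421 UMIs, and its part in these ratios was not tested.

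The vehicle library had few matured cells. From under 0.5% to 2 to 8%, on 55 cells, Myb went from 208 to 172 CPM (-0.27, -0.52 to -0.03), Kit from 19.5 to 9.57 CPM (-0.94, -2.24 to -0.04) and Erg from 20.9 to 14.4 CPM (-0.48, -1.50 to 0.27). The 31 vehicle cells at 8% or more were too few to be given values.

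**Figure D2:**
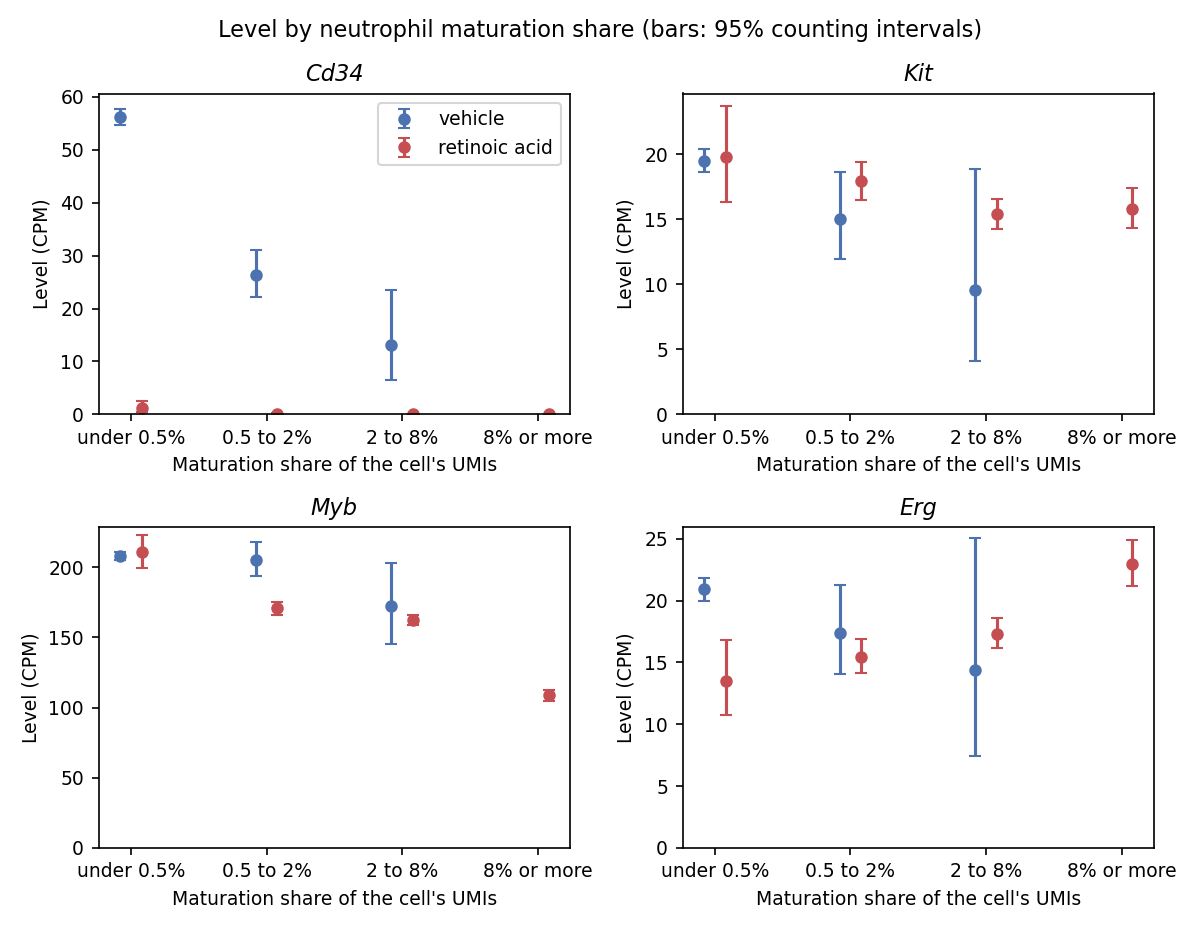
Level in CPM of Cd34, Kit, Myb and Erg (4 panels) in cells grouped by the percent of their UMIs in the maturation list, for each library, with 95% counting intervals. Cd34 steps down in the vehicle library, and in the retinoic acid library Myb ends at 109 CPM while Erg ends at 23.0 CPM.

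Phase of the cell cycle was called from S and G2/M gene lists. In G1, S and G2/M, the vehicle library had 47.6%, 21.8% and 30.6% of cells and the retinoic acid library 19.4%, 41.4% and 39.2%, so phase differed between the libraries along with treatment. Kit in vehicle cells was at 21.5 CPM (20.005 to 23.1) in G1, 16.5 CPM (14.8 to 18.2) in S and 18.5 CPM (17.2 to 19.9) in G2/M. In retinoic acid cells Kit was at 18.6 CPM (16.4 to 21.0) in G1, 19.6 CPM (18.3 to 21.0) in S and 13.3 CPM (12.4 to 14.4) in G2/M. The phase with the lowest Kit level was S in the vehicle and G2/M after retinoic acid. The log2 ratio of retinoic acid over vehicle was -0.21 (-0.42 to -0.01) in G1, 0.25 (0.08 to 0.44) in S and -0.47 (-0.62 to -0.32) in G2/M. Maturation moved with the G2/M value: treated G2/M cells had Kit at 18.2 CPM under 0.5%, against 18.9 CPM in vehicle G2/M cells of that bin, and at 15.5, 12.0 and 11.1 CPM in the next 3 bins. In treated S cells the 4 bins were at 22.7, 20.1, 19.0 and 19.4 CPM.

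Myb was highest in G1 among vehicle cells, at 221, 205 and 196 CPM in G1, S and G2/M, and lowest in G1 among retinoic acid cells, at 143, 165 and 149 CPM. Its ratio of S over G1 was -0.10 (-0.16 to -0.05) in the vehicle and 0.21 (0.14 to 0.28) after retinoic acid, beside medians over all genes of 0.08 and 0.12. In the retinoic acid library 676 of the 1291 G1 cells lay in the bin of 8% or more, where Myb in G1 was at 83.3 CPM against 263 CPM under 0.5%. The G1 value under 0.5% came from 51 cells (interval 227 to 302). At under 0.5% Myb in S cells was at 213 CPM (194 to 233) and in G2/M cells at 196 CPM. G1 had the highest level there, as it had in the vehicle, but not in every bin. In G1, S and G2/M Myb was at 185, 187 and 156 CPM at 0.5 to 2%, and at 180, 175 and 149 CPM at 2 to 8%. At 8% or more G1 was lowest, at 83.3, 111 and 123 CPM. Phase and maturation were therefore mixed in the retinoic acid G1 value.

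Flt3 in vehicle cells was at 2.07 CPM (1.62 to 2.60) in G1, 3.14 CPM (2.45 to 3.96) in S and 3.43 CPM (2.88 to 4.04) in G2/M, and after retinoic acid at 0.355, 0.873 and 0.691 CPM. Sox4 in vehicle cells was at 2.24 CPM in G1 and 1.38 CPM in G2/M, a log2 ratio of -0.69 (-1.22 to -0.18). Erg in vehicle cells was level at 20.9, 19.7 and 21.0 CPM, and after retinoic acid was at 20.8, 19.5 and 15.8 CPM. Cd34 was between 51.8 and 56.3 CPM in all 3 phases of the vehicle library.

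**Figure D3:**
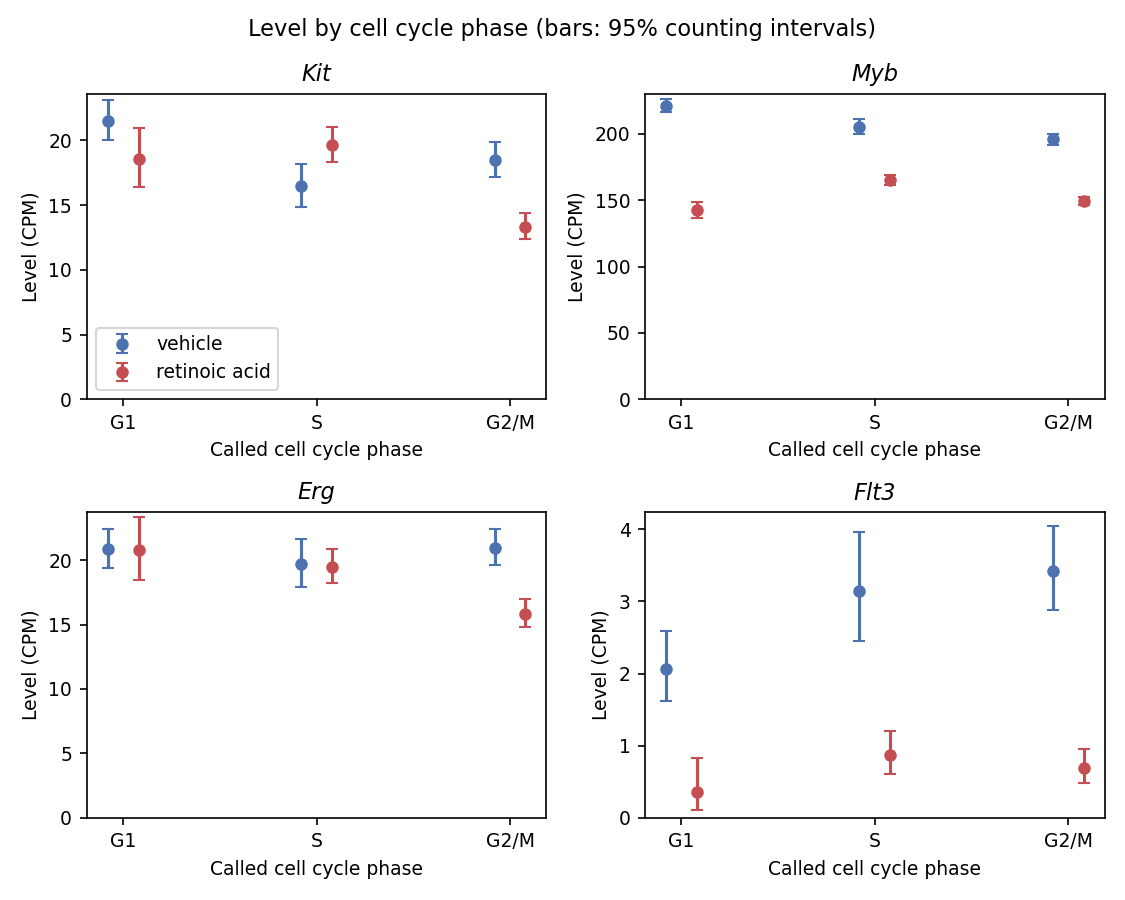
Level in CPM of Kit, Myb, Erg and Flt3 (4 panels) in cells called G1, S or G2/M, for each library, with 95% counting intervals. In S the retinoic acid point of Kit (19.6 CPM) lies above the vehicle point (16.5 CPM), and in G2/M it lies below (13.3 and 18.5 CPM).

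The vehicle library held cells rich in Mpo RNA, a promyelocyte granule gene, and cells rich in Cpa3 RNA, a mast cell and basophil progenitor gene. With a gate of 3 or more UMIs at 5000 UMIs per cell, 553 cells had Mpo without Cpa3, 1789 had Cpa3 without Mpo, 104 had both and 2836 neither. Cd34 was found in all of these, at 64.2 CPM (59.8 to 68.9) with Mpo only, 55.7 CPM (53.1 to 58.5) with Cpa3 only, 67.7 CPM (57.2 to 79.6) with both and 50.2 CPM (48.3 to 52.1) with neither. Kit was higher with Cpa3, at 23.4 CPM (21.7 to 25.1) against 16.1 CPM (13.9 to 18.5) with Mpo only, a log2 ratio of 0.54 (0.31 to 0.77). With both, Kit was at 25.3 CPM (19.1 to 33.0), and with neither at 17.2 CPM (16.1 to 18.3).

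Flt3 went the other way. It was at 4.27 CPM (3.19 to 5.60) with Mpo only, 1.98 CPM (1.51 to 2.55) with Cpa3 only, 4.15 CPM (1.90 to 7.87) with both and 3.01 CPM (2.56 to 3.51) with neither. The log2 ratio of Cpa3 only over Mpo only was -1.11 (-1.67 to -0.54), and 2.92% of genes were at least 2-fold lower in that comparison and 4.01% higher. Myb was at 191 and 224 CPM with Mpo only and Cpa3 only, a log2 ratio of 0.23 (0.16 to 0.30), and Erg at 19.6 and 18.6 CPM, with an interval of the ratio (-0.30 to 0.15) that included 0. Median depth was 20827 UMIs with Mpo only and 15445 UMIs with Cpa3 only, and its part in these ratios was not tested.

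**Figure D4:**
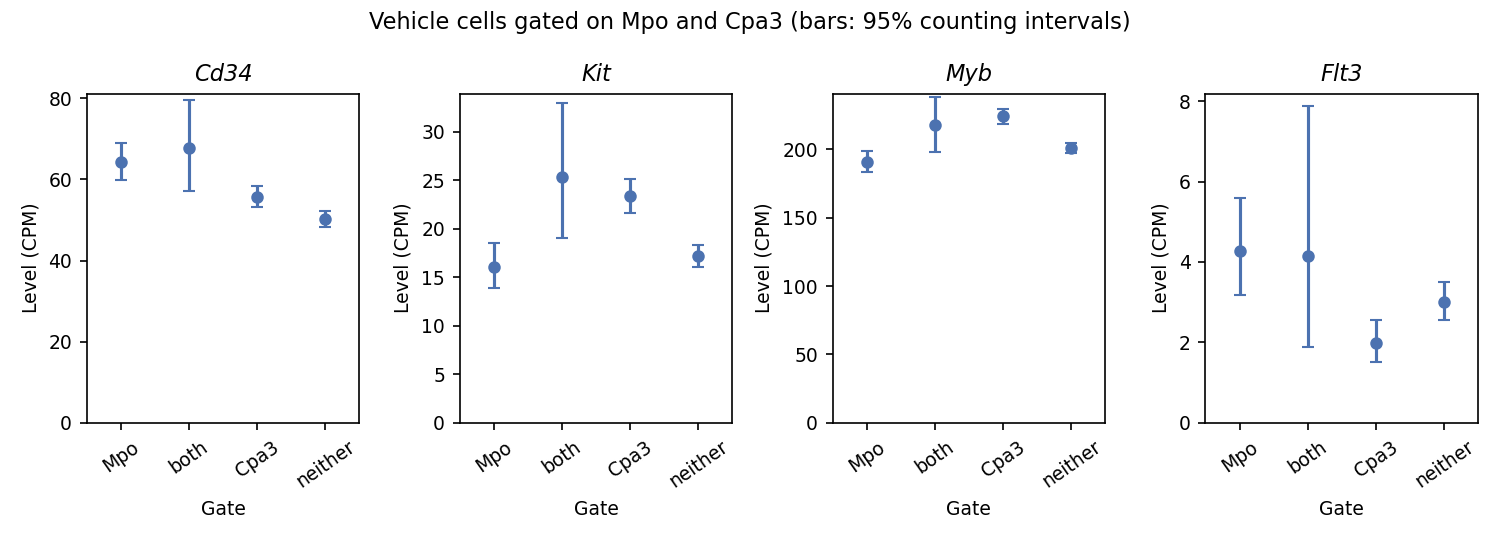
Level in CPM of Cd34, Kit, Myb and Flt3 (4 panels) in vehicle cells with 3 or more UMIs of Mpo only, of both genes, of Cpa3 only, or of neither, with 95% counting intervals. Kit is higher with Cpa3 only (23.4 CPM) than with Mpo only (16.1 CPM), and Flt3 lower (1.98 and 4.27 CPM).

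Vehicle cells were also gated on 3 or more UMIs of other lineage lists. The 1773 cells with the basophil and mast list had Cd34 at 46.5 CPM against 57.4 CPM in the other cells (log2 ratio -0.30, -0.39 to -0.22) and Erg at 17.6 against 22.0 CPM (-0.32, -0.47 to -0.18). Kit there was at 19.9 against 18.8 CPM, with an interval (-0.06 to 0.23) that included 0. The 168 cells with the eosinophil list had Cd34 at 18.1 CPM (12.8 to 24.7) against 54.8 CPM and Erg at 9.72 CPM (6.02 to 14.9) against 20.9 CPM. The log2 ratios were -1.58 (-2.10 to -1.15) and -1.07 (-1.80 to -0.49), past the 2-fold limit that 5.11% of genes passed downward and 6.32% upward. Myb was at 187 and 208 CPM in these cells and the others. After retinoic acid 113 cells passed the basophil and mast gate, with Kit at 19.9 CPM, Myb at 179 CPM, Erg at 18.3 CPM and 1 Cd34 count, and the 22 cells that passed the eosinophil gate were too few for values.

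Myb and Erg RNA was seen more often in vehicle cells with Cd34 RNA than in those without. Myb was seen in 64.1% of the 1210 cells with Cd34 and 58.8% of the 4072 without, a difference of 5.37 percentage points (2.24 to 8.42). Erg was seen in 12.0% and 9.63% (difference 2.36, 0.403 to 4.49, but 0.520, -1.22 to 2.66, at 3000 UMIs), and Kit in 9.34% and 8.30% (difference 1.04, -0.716 to 2.98). Over all UMIs of these cells, Kit was at 22.6 CPM with Cd34 and 18.1 CPM without (log2 ratio 0.32, 0.17 to 0.47), Erg at 24.3 and 19.6 CPM (0.31, 0.17 to 0.45) and Sox4 at 2.35 and 1.55 CPM (0.61, 0.10 to 1.08). The intervals of Flt3 (0.10, -0.32 to 0.49), Cd27 (0.05, -0.55 to 0.59) and Spink2 (-0.26, -1.48 to 0.70) included 0. Median depths were alike, 17101 and 17001 UMIs. In the retinoic acid library Myb was seen in 51.6% of cells with Kit and 49.5% without, and the interval of that difference (-2.27 to 6.42) included 0.

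None of the 10 genes was seen in 26.2% of vehicle and 41.9% of retinoic acid cells at 5000 UMIs. A single gene was seen in 47.6% and 49.0%, 2 in 21.8% and 8.71%, and 3 in 4.07% and 0.405%. Vehicle cells with 4 of the genes numbered 16, and there were 0 such cells after retinoic acid.

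Vehicle cells with and without Cd34 were then compared over all genes. The 10 genes with the lowest ratio of cells with over cells without Cd34, among genes of at least 20 CPM, were Ccl6, Ly6g, Akr1c18, S100a8, Epx, Olfm4, Camp, Prg2, S100a9 and Ngp. Cd34 itself left out, 0.189% of the 5287 genes at that limit were at least 2-fold lower in cells with Cd34, which are these 10, and 0.0189% higher, which is Ccl5 alone. Ccl6, a chemokine of myeloid cells, was at 21.8 CPM with and 144 CPM without Cd34, a log2 ratio of -2.72 (-2.85 to -2.59). Ly6g, a Gr1 antigen of neutrophils, was at 6.43 and 39.9 CPM, Camp, a neutrophil granule peptide, at 63.3 and 204 CPM, and Epx, the eosinophil peroxidase, at 16.6 and 57.1 CPM. On the other side stood Il15 (29.3 and 20.8 CPM), Matn2 (22.2 and 16.1), Nrgn (34.9 and 26.1), Igfbp4 (92.3 and 71.4), Far2, Jun, Ptgr1, 1500009L16Rik and Kit, with log2 ratios from 0.32 to 0.50. Ccl5 had the highest ratio, 2.31, but 510 of its 943 counts lay in 1 cell, and without that cell its ratio was -1.14 (-1.60 to -0.73).

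In the retinoic acid library, where Cd34 cells were too few, the 550 cells with Kit were compared with the 6109 without. Cstdc4 was at 65.4 and 30.0 CPM (log2 ratio 1.12, 0.99 to 1.25), Stfa2 at 37.2 and 22.2, Stfa3 at 37.5 and 25.6 and Retnlg at 276 and 192 CPM. Kit itself left out, 0.019% of 5262 genes were at least 2-fold higher with Kit, which is Cstdc4 alone, and 0% lower. Whether single cells held much of the Cstdc4 RNA was not checked, as it was for Ccl5. Cstdc4, Stfa2 and Stfa3 are stefin genes with near-identical copies, among which the counting may have split reads. The DNA replication and G1/S genes Ung, Dtl and Ccne1 were higher with Kit, at 27.4 and 19.4, 27.1 and 20.4, and 23.8 and 18.2 CPM, as were Wdr76, Cgas and Bicd1. The mitotic genes Ccnb2 (94.5 and 118 CPM), Plk1 (54.4 and 68.0), Tacc3 (54.0 and 68.1) and Kif2c (21.9 and 26.9) were lower, by log2 ratios of -0.33 to -0.29, as were Lrwd1, Atpsckmt, Suclg2, Chuk, Tstd3 and 5530601H04Rik. Of the cells with Kit, 48.4% were called S and 30.9% G2/M, against 40.8% and 39.9% of those without.

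The 451 vehicle cells with Kit were set against the 4831 without in the same way, and the genes were named after their values were seen. The 8 genes with the lowest ratios were all among those lowest in cells with Cd34: Camp (18.4 and 185 CPM, -3.32), Prg2 (4.48 and 29.5), S100a8 (42.6 and 138, -1.70), Ly6g (11.6 and 34.1), S100a9, Epx, Ngp (386 and 718, -0.90) and Olfm4. Itga2b (39.9 and 27.6 CPM), Cpa3 (748 and 555) and Il15 (29.8 and 22.1) were among the highest, with log2 ratios of 0.43 to 0.53. The median maturation share was 0.16% with and without Kit in the vehicle, and 3.62% and 3.8% after retinoic acid. With and without Cd34 in the vehicle it was 0.14% and 0.16%. The vehicle cells without Kit and those without Cd34 overlap, so the genes low in both comparisons are not an independent observation. Single vehicle cells also held many of these counts: 391 of 2706 for Prg2, 748 of 16902 for Camp and 237 of 3180 for Ly6g. The ratios by Kit were not computed without such cells, so a few cells without Kit can weigh heavily in them.

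The genes most like 4 of the group were sought over 18 states of library, phase and maturation bin (6 of the vehicle, 12 of retinoic acid), by Pearson's r of log2(CPM + 1). Nearest to Cd34 were Col18a1 (0.984), Igfbp4 (0.979), Fgf3 (0.979), Cpa3 (0.977) and Ctla2a (0.969), which were all higher in the vehicle library. Nearest to Sox4 were Dlst (0.941), Akr1c12 (0.9396), Napsa (0.936), Akr1c13 (0.931) and Fbxo9 (0.930). Nearest to Myb were Cox8a (0.972), Rpl7 (0.951), Sec61g (0.948), Glo1 (0.944) and 1110038B12Rik (0.943). Kit had no close match: Acot13 was at 0.758, followed by Snx14, Gm32846, Wdr6 and Tmem42 at 0.711 to 0.648. The states share 2 libraries and differ in depth, so these values are descriptions.

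Other stem and progenitor genes were taken from 7 lists, 101 genes in all. Of these, 61 reached 1 CPM in either library, and 15 (24.6%) were at least 2-fold lower after retinoic acid, 6 (9.84%) at least 2-fold higher and 40 within 2-fold, while 26 had 0 counts in both. The same limits gave 9.95% lower and 4.24% higher over all genes. Of the lower genes, Itga2b, Slamf1, Gfi1b and Egr1 reached the limit only through the vehicle library. The lists were also chosen with earlier results of these data known. The counts here and for the single lists below therefore describe these genes without support for a pattern. The median log2 ratio of the 61 genes was -0.13, against -0.04 over all genes.

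Among surface genes of stem and multipotent cells, 5 of 14 measured were lower and 1 was higher, beside 9.95% and 4.24% of all genes. Cd48, an adhesion molecule that separates progenitors from stem cells, was at 205 and 20.5 CPM (log2 ratio -3.32). Adgrg1, the adhesion receptor GPR56, was at 44.5 and 4.45 CPM (-3.32), Itga2b, integrin alpha IIb of megakaryocytes and early progenitors, at 28.9 and 0.491 CPM (-5.87), Slamf1, the stem cell antigen CD150, at 2.01 and 0.0908 CPM (-4.40) and Cd93 at 36.7 and 12.9 CPM (-1.51). Cxcr4, the receptor that retains cells in marrow, was at 40.1 and 80.5 CPM, a ratio of 1.01 just past the limit. Cd63 (1912 and 1688 CPM) and Cd9 (106 and 101) were within 2-fold. Thy1 (604 and 310 CPM) and the cytokine receptor genes Csf2rb (240 and 124) and Il3ra (60.1 and 30.8) were just within 2-fold, and Ly6a, the gene of Sca-1, was level at 13.4 and 13.4 CPM.

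Of stem cell transcription factors, 6 of 14 were lower and 1 was higher, beside 9.95% and 4.24% of all genes. Gata2, a regulator of stem and mast cell genes, was at 43.2 and 1.14 CPM (-5.23), Ikzf2 (Helios) at 86.0 and 3.25 CPM (-4.72), Gfi1b at 2.70 and 0.00908 CPM (1 count after retinoic acid), Zfpm1 (FOG1) at 16.7 and 3.13 CPM (-2.41), Egr1 at 2.02 and 0.118 CPM (-4.04) and Nrip1 at 30.3 and 10.2 CPM (-1.57). Hhex was at 54.2 and 114 CPM (1.07). Lmo2 (205 and 198 CPM), Myc (119 and 116), Ikzf1 (58.8 and 53.8), Runx1 (191 and 132), Lyl1 (63.8 and 99.6) and Fli1 (49.1 and 66.8) were within 2-fold, as Myb and Erg were.

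Of 11 measured relatives and cofactors of MYB and ERG, 3 were at least 2-fold higher and 0 lower, beside 4.24% and 9.95% of all genes. Ets1 was at 18.04 and 82.5 CPM (2.19), Ets2 at 4.29 and 12.2 CPM (1.51) and Mybl2, the MYB relative of dividing cells, at 16.5 and 35.1 CPM (1.09). Spi1, the gene of PU.1, was at 173 and 293 CPM (0.76), and the MYB coactivators Ep300 and Crebbp were at 45.5 and 56.5 and at 36.7 and 42.7 CPM. Sox12 (12.8 and 9.41 CPM, -0.45, -0.57 to -0.33), Elf1 (88.1 and 72.1, -0.29) and Etv6 (50.9 and 43.7, -0.22) were lower within 2-fold, with intervals below 0.

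Of 15 measured genes of ligands and signalling partners, 2 were lower and 0 higher, beside 9.95% and 4.24% of all genes. Flt3l, the ligand of FLT3, was at 17.3 and 7.25 CPM (-1.25), and Ptpn6, the phosphatase SHP-1 that acts on KIT, at 284 and 139 CPM (-1.03, and within 2-fold under TMM scaling). Socs2 was at 34.8 and 18.9 CPM, Grb2 at 141 and 106, Cbl at 40.7 and 45.8, Lyn at 24.6 and 38.4, Pik3r1 at 19.4 and 29.7, Traf2 at 22.7 and 28.9 and Ptpn11 at 24.1 and 36.3 CPM. Among lymphoid genes, Satb1 was at 8.12 and 1.48 CPM (-2.45) and Ighm, the IgM heavy chain, at 4.98 and 42.6 CPM (3.09), while Notch1 was at 19.7 and 23.98 and Cd79a at 1.998 and 1.93 CPM.

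**Figure D5:**
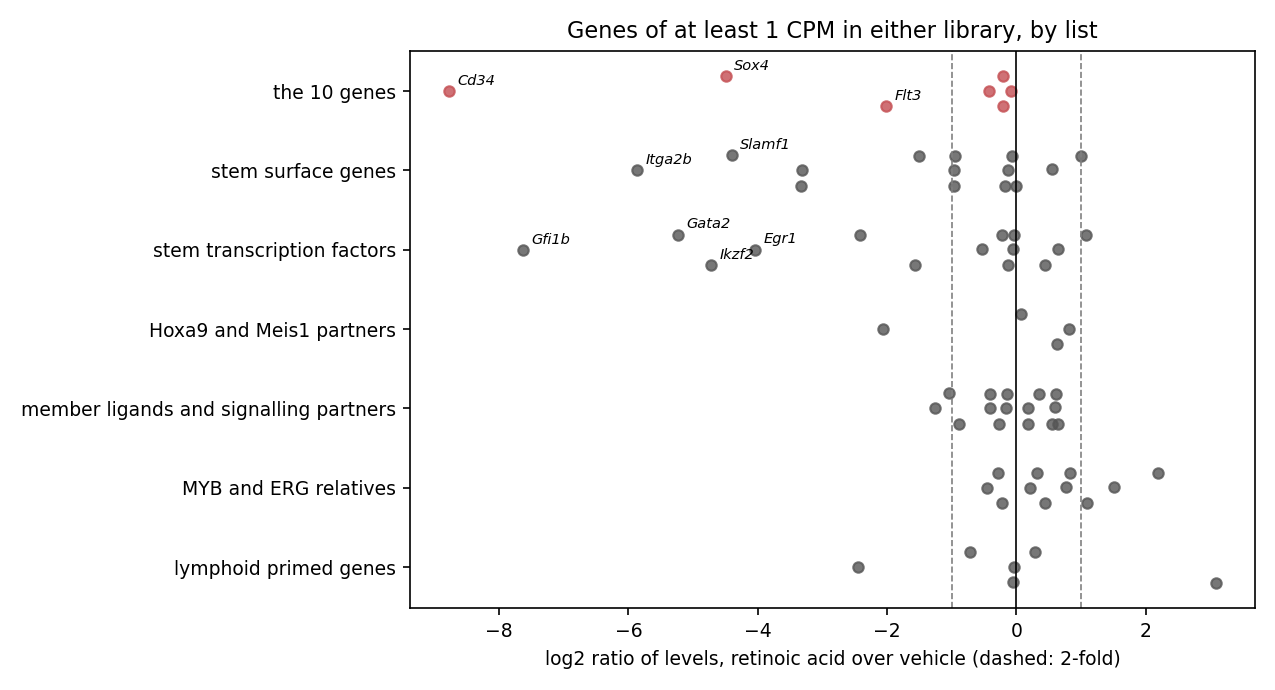
Log2 ratio of levels, retinoic acid over vehicle, for genes of at least 1 CPM in either library; each point is a gene, each line a list, and dashed lines mark 2-fold. Cd34, at -8.78, lies farthest to the left, and most genes of the ligand list and of the MYB and ERG relatives lie between the dashed lines.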

How the data were processed

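The 10 genes, the gene lists and the rules were chosen with earlier results of these data known. The authors deposited raw UMI counts per gene and cell, 1 matrix per group. Per the file headers, Cell Ranger 4.0.0 made them, with the builds mm10 and GRCm38.p4 per the submitters' processing notes. The rule that told cells from empty droplets and the use of strand are not given in the sources used here. Cells with at least 1000 UMIs, 500 genes and at most 10% mitochondrial UMIs were kept, and 310 vehicle and 276 retinoic acid barcodes were removed. No doublet caller was run, and an alternative left out the 5% of cells with the most UMIs. Gene coordinates came from GENCODE M21, in which 32158 of 32285 identifiers matched.

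Counts were summed over cells and divided by all UMIs of those cells (CPM). Log2 ratios had 0.5 counts added to each sum and exact binomial intervals given both sums. Sums have Poisson, shares Clopper-Pearson and differences of shares Newcombe intervals at 95%, for counting error only. Comparisons took genes that reached 1 CPM in 1 of the libraries, and a ratio of 2-fold was the limit for a call. Phases were called with scanpy 1.11.5 on thinned counts with 43 S and 54 G2/M genes. States of under 50 cells were given no value. The calculation was tested on simulated data. Analyses used Python 3.11.15, SciPy 1.17.1 and edgeR 4.0.16 (TMM factors, as an alternative).

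The text names the 10 genes, list genes of at least 20 CPM, stem and progenitor list genes past 2-fold, the 10 genes with the highest and lowest ratio in vehicle cells with Cd34 and in retinoic acid cells with Kit, and the 5 most similar genes. Pbx3, Pknox1, Sox12, Ly6a, Cd79a, Cd3e, Hba-a1, Klf1, the overlapping genes and those of vehicle cells with Kit fall outside this rule and were named after their values were seen. Alternatives changed the cell filter, the scaling, the limit, the thinning, the gates, the phase call and the maturation list; 3 more, chosen after seeing the data, left out barcodes found in both libraries, kept little matured cells only, or left out the cell with most UMIs of a gene.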

Additional observations from a re-analysis of the deposited data

Results flagged for a closer look

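Kit differed in direction between phases of the cell cycle. The log2 ratio of its level, retinoic acid over vehicle, was -0.21 in G1 and -0.47 in G2/M but 0.25 in S, and each counting interval lay off 0. The G1 interval (-0.42 to -0.01) only just did. TMM scaling moved the Kit ratio over all cells from -0.21 to -0.13, and the ratios by phase were not computed with it. The difference between the phases was not tested, since each group was 1 library. In treated G2/M cells Kit was at 18.2 CPM under 0.5% maturation share and at 11.1 CPM at 8% or more (log2 ratio -0.73, -1.21 to -0.22), and in vehicle G2/M cells under 0.5% at 18.9 CPM. Under 0.5%, Kit in S cells was at 22.7 CPM after retinoic acid and 16.9 CPM in the vehicle, and in G1 cells at 17.4 and 22.1 CPM.

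Myb was lower in S than in G1 in the vehicle library (log2 ratio -0.10) and higher in S than in G1 in the retinoic acid library (0.21). This difference was not tested either, and 676 of the 1291 retinoic acid G1 cells were in the most matured bin.

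Cd27 was seen in barcodes that the cell filter removed. In the 276 removed barcodes of the retinoic acid library it had 13 counts, 36.6 CPM (19.5 to 62.5), against 3 counts and 5.25 CPM (1.08 to 15.3) in the 310 removed vehicle barcodes. The 13 counts lay in 13 barcodes, 1 in each, with a median of 1529 UMIs and 17.4% mitochondrial UMIs. Those barcodes held 0 counts of Cd3e and 1 of Cd79a.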

How the results depend on the processing

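With 1 library per group, no value has a replicate check, and depth limits Sox4, Spink2, Flt3 and Cd27 the most. No paired analysis was possible because there was a single library per treatment. Of 156 alternative values for 40 results, 115 stayed within the counting interval (or within 1.5 times of a count), 37 moved past it and 4 changed sign.

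The number of genes at least 2-fold lower was 3, and was 1 with a limit of 20 or 5 CPM. The median log2 ratio of the 7 genes of at least 1 CPM, -0.42, became -0.34 with TMM scaling, -0.33 with the maturation list left out of the total, -0.46 with phases set to the vehicle shares, -0.31 with a limit of 5 CPM, -1.22 with no limit and -0.62 in cells under 0.5% maturation share. In those cells, an alternative chosen after seeing the data, Kit changed to 0.026 and Myb to 0.0194, from -0.21 and -0.42. Erg, at -0.20, became -0.07 when each cell weighed the same. The cause of these shifts was not tested.

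The difference in the share of cells with Cd34, -22.8 points at 5000 UMIs, was -13.5 at 3000, -37.3 at 10000 and -50.4 without thinning, and the number of UMIs per cell sets it. The Cd27 difference of 0.247 points became -0.592 without thinning. The Myb ratio along maturation, -0.96, was -0.67 when those genes did not count toward the total and -1.66 in G1 cells only. The G1 contrast had 51 cells in its first bin and a median over all genes of -0.61, against -0.32 over cells of all phases. Among other stem and progenitor genes, 15 were lower and 6 higher. Of the 39 such genes of at least 20 CPM, 9 were lower and 5 higher. Over all 5548 genes at that limit, 5.05% were lower and 3.03% higher. Ccl5 in cells with Cd34, 2.31, became -1.14 without its top cell, also chosen after seeing the data.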

Other observations

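Genes on the opposite strand of 4 of the 10 genes had their own counts. Gm26577, antisense to Myb, had 36 counts without and 103 with retinoic acid, while Myb itself went from 20573 to 17079. Gm26597, antisense to Flt3, had 9 and 1 counts, and Gm16897, antisense to Cd34, had 3 and 0. Vamp1, opposite to Cd27, had 462 and 491 counts. The sources used here do not state the use of strand, so how reads over both genes of a pair were assigned is not known.

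The removed barcodes also held the group's more abundant genes. In the vehicle library Cd34 was at 47.2 CPM (31.1 to 68.7) in the 310 removed barcodes and Myb at 287 CPM (245 to 334), and in the retinoic acid library Cd34 had 0 counts in the 276 removed barcodes and Myb was at 312 CPM (257 to 376).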
